A study of Mus musculus with 24 samples.

Results

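The acute response of wild-type (WT) mouse colon to dextran sulfate sodium (DSS) was described from 6 of the 24 RNA-seq libraries of the series. The 6 libraries were chosen by their source labels: 3 came from colon of DSS-treated WT mice sacrificed at day 7, and 3 from colon of untreated WT mice kept on water. All mice were of the C57BL/6 strain, and the DSS-treated mice are labelled as having DSS-induced colitis. The series also holds colon of mice with Axin1 deleted in intestinal epithelial cells alone (KO), colon at day 13, and colorectal tumours of AOM/DSS-treated mice of both genotypes. For comparison, KO colon at day 7 of DSS, KO colon untreated and WT colon at day 13 of DSS are used. The design text states 3 biological replicates per group, and the labels give neither sex, age, DSS dose nor the hour of collection. The KO deletion is in epithelial cells, so the other cells of KO colon keep Axin1. The RNA came from colon tissue washed in buffer, so fewer cells of a type and less RNA per cell cannot be told apart in any value below.

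DSS is a sulfated polysaccharide that, given in drinking water, damages the colonic epithelium and brings bacteria into contact with the mucosa. Acute DSS colitis is known for loss of crypt epithelium, entry of neutrophils and monocytes, release of cytokines such as IL-1beta and TNF, and remodelling of the matrix, followed by regrowth of the crypts. Surface colonocytes normally absorb water, salt and short-chain fatty acids, goblet cells make the mucus, and stem cells at the crypt base renew both.

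The WT day 7 libraries held 22748714, 15653300 and 21866988 expected counts, against 22648568, 25127511 and 21872419 in the untreated WT libraries. Levels below are in CPM, read counts scaled to library size with the normalization factors. Fold changes are log2 values of WT day 7 over untreated WT with their standard error, and adjusted p-values are from edgeR's quasi-likelihood test with Benjamini-Hochberg adjustment over 18102 genes. "Rose" and "fell" mean an adjusted p under 0.05. Axin1, the gene deleted in KO, had 47.4, 45.3 and 49.1 CPM at WT day 7, against 49.9, 53.5 and 47.7 CPM in untreated WT, and the 2 groups of WT libraries overlapped (log2 fold change -0.09 ± 0.11, adjusted p = 0.606). Some libraries stood apart from others of their group. Summed smooth muscle markers reached 15050 CPM in WT day 7 replicate 2, against 4643 and 8061 CPM in the other WT day 7 libraries, and 8500, 11090 and 7253 CPM in untreated WT. The fibroblast markers summed to 2273, 7162 and 2433 CPM at WT day 7, against 2212, 2664 and 1753 CPM in untreated WT. The 4 Y-linked genes measured summed to 0, 0.118 and 0 CPM at WT day 7, against 153.5, 133.5 and 0 CPM in untreated WT, so among these 6 libraries Y-linked genes were high in untreated WT replicates 1 and 2 alone. WT day 7 replicate 2 and untreated WT replicate 2 also carry the same Illumina sample number in their file names, and are called the shared-number pair. Repeated numbers occur elsewhere in the series too. Untreated KO replicate 2 and KO day 7 replicate 3 both carry 15, and untreated WT replicate 1 and KO tumour replicate 1 both carry 12. Untreated WT replicate 3 and KO tumour replicate 2 both carry 13, so each untreated WT library shares its number with another library. Further numbers repeat among the remaining libraries, and the shared-number pair is the only repeat within the 6 libraries compared. For these reasons each count was recomputed with Y-linked expression as a covariate, without the shared-number pair, and without each library.

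Of the 18102 genes tested, 2949 differed between WT day 7 and untreated WT (16.3%): 1543 rose (8.52%) and 1406 fell (7.77%). The rise passed 2-fold for 744 genes and the fall for 559. The median log2 fold change of all genes tested was 0.03. The counts depended strongly on the untreated libraries: 1369 genes passed without untreated WT replicate 1, 1669 without replicate 2 and 1848 without replicate 3. With the Y-linked covariate 1081 genes passed, in a fit of the 6 libraries alone 931, and without the shared-number pair 1444. Of 133 named genes that passed, 65 also passed in each of the alternatives in which they were tested.

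**Figure D1:**
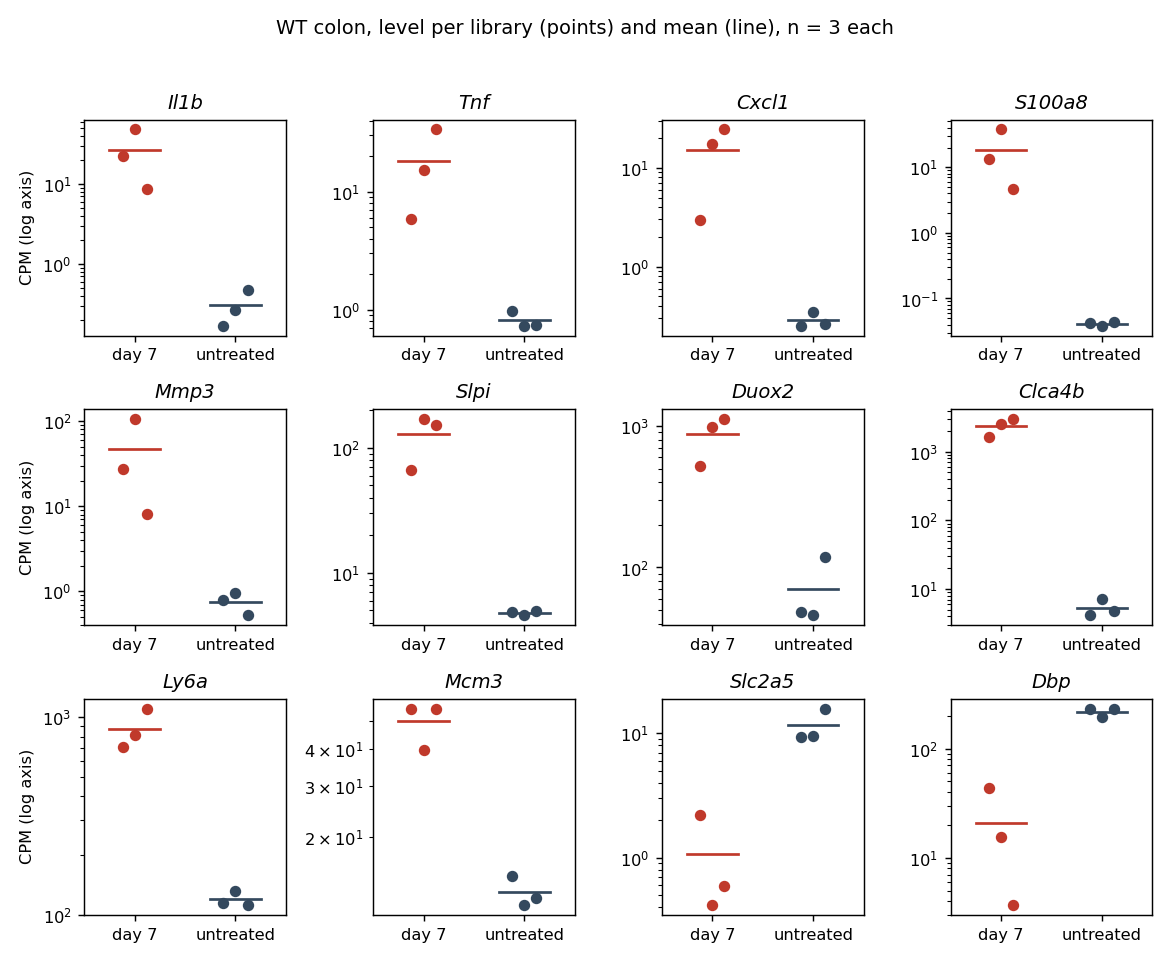
Levels of 12 genes in each WT library, in CPM on a log axis, with day 7 of DSS on the left and untreated on the right of each panel; points are libraries and lines are means of 3. The 3 day 7 libraries lie above the 3 untreated libraries for 10 of the genes, from Il1b to Mcm3, and below them for Slc2a5 and Dbp.

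Cytokines were among the genes with the largest rises. Il1b (ENSMUSG00000027398, chr2:129364570-129371139, minus strand), which encodes the inflammasome-processed cytokine IL-1beta, had 22.5, 48.5 and 8.64 CPM at WT day 7, against 0.168, 0.268 and 0.478 CPM in untreated WT. Positions are on GRCm38 throughout. Each WT day 7 library lay above each untreated WT library (log2 fold change 6.43 ± 0.97, adjusted p = 0.00148). Tnf, the gene of tumour necrosis factor, had 5.88, 15.2 and 33.8 CPM at WT day 7, against 0.967, 0.728 and 0.738 CPM in untreated WT, again with no overlap (log2 fold change 4.49 ± 0.72, adjusted p = 0.00184). Il11, an IL-6 family cytokine made largely by stromal cells, had 6.3, 29.5 and 1.38 CPM at WT day 7, against 0.294, 0.268 and 0.304 CPM in untreated WT, highest in WT day 7 replicate 2 (log2 fold change 5.39 ± 0.96, adjusted p = 0.00286). Lif, of the same family, rose less (log2 fold change 1.69 ± 0.33, adjusted p = 0.0044). Il6 had 0.841, 2.9 and 0.344 CPM at WT day 7, against 0.042, 0.0383 and 0 CPM in untreated WT. Untreated WT held only 2 Il6 reads in all, and the ratio of depth-scaled reads was 45.4-fold (95% interval 12.1 to 382), an interval that covers counting error only. Its adjusted p was 0.00607, and 0.0548 without the shared-number pair. Il17a and Il22, cytokines of type 17 lymphocytes, had no read in untreated WT, and WT day 7 held 0.42, 1.72 and 0.491 CPM of Il22. Of 18 cytokine genes tested, 9 rose, with a median log2 fold change of 2.57. That is 50% of the list beside 8.52% of all genes tested. Il18, Il1rn, Il23a, Il33, Tslp, Il10, Il17f, Il1a and Tgfb1 did not pass, and Il18, an epithelial member of the IL-1 family, had 94.2, 88.8 and 177 CPM at WT day 7, against 78.3, 88.1 and 94.6 CPM in untreated WT (log2 fold change 0.47, adjusted p = 0.309). The count of cytokines that rose was 4 in a fit of the 6 libraries alone or without the shared-number pair and 5 with a stricter filter or without WT day 7 replicate 2 or without untreated WT replicate 1 or 2.

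Chemokines that attract neutrophils and monocytes were higher. Cxcl1, a ligand of the neutrophil receptor CXCR2, had 2.98, 17.5 and 24.4 CPM at WT day 7, against 0.252, 0.345 and 0.261 CPM in untreated WT (log2 fold change 5.68 ± 0.94, adjusted p = 0.002). WT day 7 replicate 1 was the lowest of its group and lay above all untreated WT libraries. Cxcl2, a second ligand of that receptor, had 5, 16 and 6.53 CPM at WT day 7, against 0, 0.0766 and 0 CPM in untreated WT, with 2 reads in untreated WT and a ratio of 312-fold (95% interval 85.9 to 2581). Cxcl5 and Cxcl3, ligands of the same receptor, also rose, and the receptor gene Cxcr2 had 1.89, 6.16 and 0.245 CPM at WT day 7 and no read in untreated WT. Ccl2, which attracts monocytes through CCR2, had 4.25, 14.7 and 4.17 CPM at WT day 7, against 0.168, 0.766 and 0.13 CPM in untreated WT (log2 fold change 4.39 ± 0.77, adjusted p = 0.00251). Ccl8 had 9.12, 10.7 and 8.93 CPM at WT day 7, against 1.56, 1.3 and 2.13 CPM in untreated WT (log2 fold change 2.53 ± 0.45, adjusted p = 0.00262). The interferon-induced chemokines Cxcl9 (log2 fold change 4.56, adjusted p = 0.0329) and Cxcl10 (log2 fold change 3.22, adjusted p = 0.0439) rose closer to the threshold. In all 12 of 27 chemokine genes tested rose (44.4%, median log2 fold change 2.04), beside 8.52% of all genes tested. Ccl6, Ccl28, Cx3cl1 and Cxcl12, which were abundant in untreated colon, overlapped between the groups, and Ccl28 had 128, 84.6 and 215 CPM at WT day 7, against 190.3, 175 and 194 CPM in untreated WT. Across alternatives the number of chemokines that rose was 6 without the shared-number pair or without untreated WT replicate 1 or 3 and 7 with no filter on low counts or with the Y-linked covariate or without WT day 7 replicate 1 or without untreated WT replicate 2.

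Promoter windows of Cxcl1 (chr5:90890995-90891244, plus strand) and Cxcl2 (chr5:90903649-90903898, plus strand) are shown because both genes rose together and each window, the 250 bases upstream of the start site in the RefSeq table on GRCm38.p6, holds a match to the NF-kB motif. NF-kB is a transcription factor activated by IL-1 and TNF signals. Capitals mark the bases that match.
Cxcl1: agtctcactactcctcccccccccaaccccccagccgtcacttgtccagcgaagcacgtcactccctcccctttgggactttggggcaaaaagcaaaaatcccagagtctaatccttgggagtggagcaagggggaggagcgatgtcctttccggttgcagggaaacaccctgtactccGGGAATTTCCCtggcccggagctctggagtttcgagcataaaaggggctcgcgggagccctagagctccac
Cxcl2: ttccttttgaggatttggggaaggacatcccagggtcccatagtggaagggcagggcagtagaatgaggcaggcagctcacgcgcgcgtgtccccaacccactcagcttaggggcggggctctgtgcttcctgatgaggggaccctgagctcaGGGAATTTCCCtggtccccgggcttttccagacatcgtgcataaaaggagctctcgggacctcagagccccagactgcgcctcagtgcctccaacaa
The matches begin 71 bases before the Cxcl1 start site and 97 bases before that of Cxcl2, in both cases with an overlapping second match that begins 1 base nearer to it. Of 18 chemokine genes with a window in the table, 5 held such a match (27.8%), beside 5.58% of the 12392 genes tested that have a window, 7.91% of those that rose and 4.6% of those that fell. The share was 40% among 15 interferon-gamma and antigen presentation genes, 27.3% among 11 enteric neuron and glia genes and 25% among 12 endothelial genes. It was 7.69% among 13 cytokine genes and 0% among 13 neutrophil genes. The windows of Il1b, Lcn2, Saa3 and Nfil3, which also rose, hold no such match. The motif and the windows shown were chosen after the values were seen, 5 motifs were searched over 42 lists, and a match is a description of the letters and not of binding.

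Neutrophil markers had the highest median log2 fold change of the lists, from levels near 0. S100a8 and S100a9 encode the subunits of calprotectin, the main cytosolic protein of neutrophils. S100a8 had 13.4, 37.9 and 4.66 CPM at WT day 7, against 0.042, 0.0383 and 0.0434 CPM in untreated WT. S100a9 had 17.2, 72.4 and 4.81 CPM at WT day 7, against 0.042, 0 and 0.0868 CPM in untreated WT. Each gene had 3 reads over the 3 untreated WT libraries, and the ratios of depth-scaled reads were 419.6-fold (95% interval 143 to 2038) for S100a8 and 689-fold (95% interval 235 to 3345) for S100a9. WT day 7 replicate 2 was the highest and replicate 3 the lowest for both. Clec4e, an innate receptor for mycobacterial and fungal glycolipids, had 4.75, 11.5 and 1.28 CPM at WT day 7, against 0.042, 0 and 0 CPM in untreated WT, a ratio of 399-fold (95% interval 71.1 to 15800.0). Csf3r, the receptor for the granulocyte growth factor G-CSF, had 4.04, 17.5 and 3.83 CPM at WT day 7, against 0.42, 0.268 and 0.608 CPM in untreated WT (log2 fold change 4.27 ± 0.90, adjusted p = 0.00674). Of 14 neutrophil genes tested, 12 rose (85.7%), beside 8.52% of all genes tested. The median log2 fold change was 6.02, or 4.69 when the 3 genes with no untreated read were placed at the bound that 3 reads would give. Granule genes of immature neutrophils were at or near 0: Elane had no read in either group, Mpo had 2 reads at WT day 7 and 1 in untreated WT, and Camp had 4 at WT day 7 and 0 in untreated WT. Ly6g, the surface antigen used to sort neutrophils, was already high in untreated WT and had 238, 269.9 and 291 CPM at WT day 7, against 153, 163 and 104 CPM in untreated WT (log2 fold change 0.93, adjusted p = 0.334). It makes up most of the summed level of the list. The count that rose was 3 without the shared-number pair and 6 with a stricter filter or with the Y-linked covariate.

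Monocyte and macrophage genes rose less. Cd14, the co-receptor for lipopolysaccharide, had 60.2, 56.8 and 89.3 CPM at WT day 7, against 21.6, 21.9 and 28.9 CPM in untreated WT (log2 fold change 1.51 ± 0.23, adjusted p = 0.00148), with all WT day 7 libraries above all untreated WT libraries. Fcgr1, Ccr2, Itgam, Fcgr3, Tyrobp, Aif1 and Clec4d rose too. In all 8 of 23 genes tested rose (34.8%, median log2 fold change 0.77), beside 8.52% of all genes tested. Ccr2, the receptor that marks incoming monocytes, had 9.58, 16.3 and 9.82 CPM at WT day 7, against 3.19, 3.71 and 3.91 CPM in untreated WT (log2 fold change 1.72 ± 0.47, adjusted p = 0.024). Genes of resident macrophages overlapped between the groups. Csf1r had 23.9, 41.6 and 27.3 CPM at WT day 7, against 24, 20.8 and 23.3 CPM in untreated WT. Mrc1 had 12.8, 26.6 and 19.9 CPM at WT day 7, against 20.7, 21.4 and 12.5 CPM in untreated WT. Il5ra, the IL-5 receptor known from eosinophils and B-1 cells, had 6.26, 17.8 and 1.62 CPM at WT day 7, against 0.21, 0.115 and 0.217 CPM in untreated WT (log2 fold change 5.53 ± 0.91, adjusted p = 0.00195). The eosinophil granule genes Epx and Prg2 had too few reads to be tested. Prg2 had 3 reads at WT day 7 and 17 in untreated WT, the opposite direction, and Epx had 1 and 0. The monocyte and macrophage count was 2 with the Y-linked covariate or without the shared-number pair, 3 without untreated WT replicate 1, 4 without WT day 7 replicate 2 or without untreated WT replicate 2 and 5 without untreated WT replicate 3.

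Of the T cell and cytotoxic list, 5 of 19 genes tested rose (26.3%) and 1 fell (5.26%), beside 8.52% and 7.77% of all genes tested. The log2 fold change was positive for 18 genes and -1.01 for the gene that fell. The summed level of the list was lower in each WT day 7 library. It was 89.4, 70.7 and 62.5 CPM at WT day 7, against 90.3, 96.9 and 114.1 CPM in untreated WT. Gzmb, the protease granzyme B of cytotoxic lymphocytes, had 1.64, 1.72 and 1.96 CPM at WT day 7, against 0.042, 0 and 0.0868 CPM in untreated WT, with 3 reads in untreated WT and a ratio of 43-fold (95% interval 14.3 to 212). Ctla4, an inhibitory receptor of activated and regulatory T cells, had 1.68, 3.91 and 1.03 CPM at WT day 7, against 0.168, 0.192 and 0.0868 CPM in untreated WT (log2 fold change 3.82 ± 0.71, adjusted p = 0.00344). Foxp3, the regulator of regulatory T cells, Icos and Trac also rose, but Cd3e, Cd3g and Cd8a did not pass. Genes of the T cell receptor complex were low in all 6 libraries, and Cd3e had 0.715, 1.95 and 0.54 CPM at WT day 7, against 0.546, 0.613 and 1.22 CPM in untreated WT. The number that rose was 2 without the shared-number pair and 3 with a stricter filter or in a fit of the 6 libraries alone or with the Y-linked covariate or without WT day 7 replicate 2 or without untreated WT replicate 1 or 2. Among 18 B and plasma cell genes 1 rose (5.56%), below the 8.52% of all genes tested. That number was 0 in a fit of the 6 libraries alone or with the Y-linked covariate or without the shared-number pair. It was also 0 without WT day 7 replicate 2 or without untreated WT replicate 2 or 3.

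Epithelial defence genes rose, and the abundant oxidase genes were among them. Duox2 and Duoxa2 encode the hydrogen peroxide-producing oxidase of the colonic surface and its maturation factor. Duox2 (ENSMUSG00000068452, chr2:122279247-122298449, minus strand) had 523, 978 and 1119 CPM at WT day 7, against 48.2, 45.9 and 119 CPM in untreated WT (log2 fold change 3.62 ± 0.58, adjusted p = 0.00178). Duoxa2 had 98.7, 150.3 and 207 CPM at WT day 7, against 7.06, 8.2 and 14.8 CPM in untreated WT (log2 fold change 3.93 ± 0.55, adjusted p = 0.00103). Nos2, the inducible nitric oxide synthase, had 85.2, 87.7 and 320.3 CPM at WT day 7, against 1.93, 1.26 and 4.21 CPM in untreated WT (log2 fold change 6.06 ± 1.11, adjusted p = 0.00323), and WT day 7 replicate 3 was the highest. Slpi, a secreted inhibitor of neutrophil elastase, had 66.6, 170.1 and 154 CPM at WT day 7, against 4.88, 4.56 and 4.95 CPM in untreated WT (log2 fold change 4.76 ± 0.70, adjusted p = 0.00137). The untreated libraries differed little from each other. Lcn2, the siderophore-binding lipocalin, had 16.7, 27.1 and 9.96 CPM at WT day 7, against 0.799, 1.72 and 1.48 CPM in untreated WT (log2 fold change 3.74 ± 0.74, adjusted p = 0.0049). Saa3 and Pla2g2a rose as well, and Dmbt1, a mucosal scavenger protein, was abundant in both groups with 11180.0, 9228 and 14640.0 CPM at WT day 7, against 4575, 4309 and 3205 CPM in untreated WT (log2 fold change 1.54 ± 0.30, adjusted p = 0.00444). In all 10 of 19 antimicrobial and acute phase genes rose (52.6%, median log2 fold change 3.93), beside 8.52% of all genes tested. Across the alternatives 8 to 14 did so.

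Some defence genes were high in a single library. Reg3b, a C-type lectin that binds bacteria, had 993, 3.61 and 0.638 CPM at WT day 7, against 0.799, 0.306 and 1.61 CPM in untreated WT, so WT day 7 replicate 1 alone was high and the groups overlapped (log2 fold change 8.54 ± 2.99, adjusted p = 0.0639). Reg3g, its close relative, had 361, 1.54 and 2.6 CPM at WT day 7, against 0.841, 0.153 and 0.868 CPM in untreated WT, again with replicate 1 far above the rest, and did not pass (log2 fold change 7.63, adjusted p = 0.0647). Retnlb, a goblet cell protein toxic to Gram-negative bacteria, had 293, 26.7 and 102 CPM at WT day 7, against 0, 0 and 0.868 CPM in untreated WT (log2 fold change 8.96 ± 2.49, adjusted p = 0.0255). Its adjusted p was 0.0793 with no filter on low counts, 0.119 with the Y-linked covariate, 0.101 without the shared-number pair, 0.051 without WT day 7 replicate 1, 0.101 without untreated WT replicate 1, 0.0919 without untreated WT replicate 2 and 0.0662 without untreated WT replicate 3. Ltf, lactoferrin, was higher in each WT day 7 library, with 3.87, 12.3 and 15.9 CPM at WT day 7, against 0.378, 0.383 and 0.347 CPM in untreated WT, but did not pass (log2 fold change 4.83, adjusted p = 0.167).

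The Clca genes, a family of secreted metalloproteases named as chloride channel regulators, included Clca4b, among the largest rises of all. Clca4b (ENSMUSG00000074195, chr3:144910921-144932529, minus strand) had 1668, 2536 and 3012 CPM at WT day 7, against 4.12, 7.09 and 4.86 CPM in untreated WT (log2 fold change 8.81 ± 1.39, adjusted p = 0.00175). By TPM, which corrects for gene length, its mean was 1230.0 TPM at WT day 7 and 2.72 TPM in untreated WT, beside 244 TPM at WT day 7 and 19.2 TPM in untreated WT for Duox2. Clca3b had 498, 541 and 629 CPM at WT day 7, against 54.6, 41.7 and 218 CPM in untreated WT, and passed (log2 fold change 2.41 ± 0.58, adjusted p = 0.0129). Clca4a had 794, 489.8 and 428 CPM at WT day 7, against 109.9, 135 and 162 CPM in untreated WT, and did not pass (log2 fold change 2.07 ± 0.83, adjusted p = 0.0966). Clca1, the goblet cell member, overlapped between the groups with 3322, 3646 and 5899 CPM at WT day 7, against 2210.0, 1885 and 4298 CPM in untreated WT (log2 fold change 0.62, adjusted p = 0.361). In this list, chosen after the values were seen, 5 of 8 genes tested rose (62.5%), beside 8.52% of all genes tested. In a fit of the 6 libraries alone 3 rose. Clca4c-ps, a pseudogene of the family, rose with Clca4b (log2 fold change 6.62 ± 0.76, adjusted p = 0.00064), and reads of such near copies may have been split between them.

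Matrix metalloproteinases rose together with their inhibitor Timp1. Mmp3 (ENSMUSG00000043613, chr9:7445822-7455975, plus strand), the stromelysin gene whose product cleaves proteoglycans and activates other proteases, had 27.6, 106 and 8.15 CPM at WT day 7, against 0.799, 0.958 and 0.521 CPM in untreated WT (log2 fold change 5.94 ± 1.05, adjusted p = 0.00273). Mmp10, its close relative, had 20.1, 82.7 and 4.76 CPM at WT day 7, against 0.168, 0.153 and 0.217 CPM in untreated WT (log2 fold change 7.60 ± 1.13, adjusted p = 0.00137). Mmp13, a collagenase, had 28, 108 and 15.3 CPM at WT day 7, against 2.02, 0.46 and 2 CPM in untreated WT (log2 fold change 5.08 ± 0.87, adjusted p = 0.00236). In each case WT day 7 replicate 2 was highest and replicate 3 lowest, and the lowest WT day 7 level was above all untreated WT levels. Timp1, a tissue inhibitor of these proteases, had 8.57, 22.1 and 4.22 CPM at WT day 7, against 0.841, 1.07 and 0.868 CPM in untreated WT (log2 fold change 3.64 ± 0.63, adjusted p = 0.00243), while Timp2 and Timp3 overlapped between the groups (0.00 and -0.68 on the log2 scale). Mmp8 and Mmp9, which neutrophils carry, rose too. In all 11 of 17 genes rose (64.7%, median log2 fold change 2.29), beside 8.52% of all genes tested. The count was 4 with the Y-linked covariate or without the shared-number pair, 5 in a fit of the 6 libraries alone or without WT day 7 replicate 2 or without untreated WT replicate 1 and 6 without untreated WT replicate 2 or 3, and Mmp3, Mmp10, Mmp13 and Timp1 passed in each of these.

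The genes Mmp3, Mmp10 and Mmp13 lie in a cluster on chromosome 9 and rose together, so their upstream windows are shown (chr9:7445572-7445821, plus strand for Mmp3, chr9:7502092-7502341, plus strand for Mmp10 and chr9:7272264-7272513, plus strand for Mmp13; RefSeq, GRCm38.p6). Capitals mark the AP-1 motif TGANTCA, the letters bound by Fos and Jun proteins, searched on both strands.
Mmp3: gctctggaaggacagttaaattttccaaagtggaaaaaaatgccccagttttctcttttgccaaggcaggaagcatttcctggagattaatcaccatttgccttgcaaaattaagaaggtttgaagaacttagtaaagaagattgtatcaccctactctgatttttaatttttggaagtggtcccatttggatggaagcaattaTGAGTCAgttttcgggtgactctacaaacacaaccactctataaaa
Mmp10: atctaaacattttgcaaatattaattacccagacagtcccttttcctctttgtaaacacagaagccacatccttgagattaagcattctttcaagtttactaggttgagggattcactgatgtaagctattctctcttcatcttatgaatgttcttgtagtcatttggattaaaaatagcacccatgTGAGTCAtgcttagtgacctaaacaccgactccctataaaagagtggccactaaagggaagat
Mmp13: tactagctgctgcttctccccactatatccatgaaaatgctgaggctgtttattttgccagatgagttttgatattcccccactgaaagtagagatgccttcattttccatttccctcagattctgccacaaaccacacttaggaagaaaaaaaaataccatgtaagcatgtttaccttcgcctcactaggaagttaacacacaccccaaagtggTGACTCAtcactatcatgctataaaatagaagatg
Each window holds a single match, beginning 46, 63 and 35 bases before the start site of Mmp3, Mmp10 and Mmp13. Of 14 genes of the list with a window 5 held the motif (35.7%), beside 6.08% of the genes tested with a window, 9.04% of those that rose and 4.5% of those that fell. The share was 46.2% among 13 cytokine genes and 0% among 13 neutrophil genes. It was also 50% among 6 genes of a squamous epithelium list in which 0 of 12 genes tested passed. Among 11 iron and metal genes it was 36.4%, and among 13 junction genes 23.1%. The AP-1 motif and these windows were chosen after the values were seen. Fosl1, which encodes the AP-1 subunit Fra-1, had 1.76, 8.17 and 1.38 CPM at WT day 7, against 0.042, 0.115 and 0 CPM in untreated WT (log2 fold change 5.97 ± 1.18, adjusted p = 0.00487).

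Stromal, vascular and neural markers were highest in WT day 7 replicate 2. Of 20 fibroblast and matrix genes 8 rose (40%), beside 8.52% of all genes tested. Among them was Tnc, the injury-induced matrix protein tenascin C. It had 144, 354 and 106 CPM at WT day 7, against 46.8, 44.4 and 65.8 CPM in untreated WT (log2 fold change 1.94 ± 0.40, adjusted p = 0.00605). Fn1, fibronectin, had 385, 2093 and 716 CPM at WT day 7, against 334, 421 and 265 CPM in untreated WT (log2 fold change 1.65, adjusted p = 0.0307). The fibrillar collagens did not pass. Col1a1 had 208, 352 and 138 CPM at WT day 7, against 132, 171 and 109 CPM in untreated WT (log2 fold change 0.76, adjusted p = 0.177). Col3a1 had 393, 1139 and 367 CPM at WT day 7, against 479.9, 570.3 and 360.2 CPM in untreated WT. The fibroblast count was 1 without the shared-number pair, 2 in a fit of the 6 libraries alone or without WT day 7 replicate 2 or without untreated WT replicate 1 or 2, 3 with the Y-linked covariate or without untreated WT replicate 3 and 5 with no filter on low counts. In the endothelial list 4 of 18 genes rose (22.2%), beside 8.52% of all genes tested. They were the leukocyte adhesion molecules Madcam1, Icam1, Selp and Sele. Madcam1, which binds the gut-homing integrin of lymphocytes, had 5.04, 9.47 and 2.7 CPM at WT day 7, against 1.05, 0.613 and 1.48 CPM in untreated WT (log2 fold change 2.45 ± 0.56, adjusted p = 0.0099), while the vessel genes Pecam1, Cdh5 and Kdr overlapped. That count was 0 with the Y-linked covariate or without the shared-number pair, 1 in a fit of the 6 libraries alone or without untreated WT replicate 1, 2 without WT day 7 replicate 2 or without untreated WT replicate 2 or 3, 7 with DESeq2 or in a fit of all 24 libraries and 8 without WT day 7 replicate 3.

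Gfap, an intermediate filament of enteric glia, had 7.69, 35.6 and 10.2 CPM at WT day 7, against 1.43, 2.18 and 2.52 CPM in untreated WT (log2 fold change 3.12 ± 0.51, adjusted p = 0.00188), and passed in each alternative. The neural list had 4 of 17 genes that rose (23.5%), beside 8.52% of all genes tested. Besides Gfap these were Ret, Nos1 and Prph, which mark enteric neurons. The summed level of the list was 321.5, 665.6 and 358.2 CPM at WT day 7, against 565.6, 474.2 and 524.2 CPM in untreated WT. By that sum WT day 7 replicates 1 and 3 lay below each untreated WT library. The glial genes S100b and Sox10 overlapped between the groups. The count was 1 in a fit of the 6 libraries alone or with the Y-linked covariate or without the shared-number pair or without WT day 7 replicate 2 or without untreated WT replicate 1 or 2, 2 with no filter on low counts and 9 with DESeq2 or without WT day 7 replicate 3. Smooth muscle had 0 of 15 genes past edgeR's test, 0 at an unadjusted p under 0.05 and 0 with DESeq2. Haemoglobin genes were higher in WT day 7 replicates 1 and 2, where the erythrocyte list summed to 103 and 145.6 CPM, against 15.7 CPM in replicate 3 and 17.9, 29.3 and 10.6 CPM in untreated WT. None of its 5 genes passed edgeR's test, while all 5 had an unadjusted p under 0.05 and passed with DESeq2. With edgeR all 5 passed without WT day 7 replicate 3, 4 without the 3 outlying libraries of other groups and 1 in a fit of all 24 libraries. What part these sums play in the other results was not tested beyond the counts without replicate 2.

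**Figure D2:**
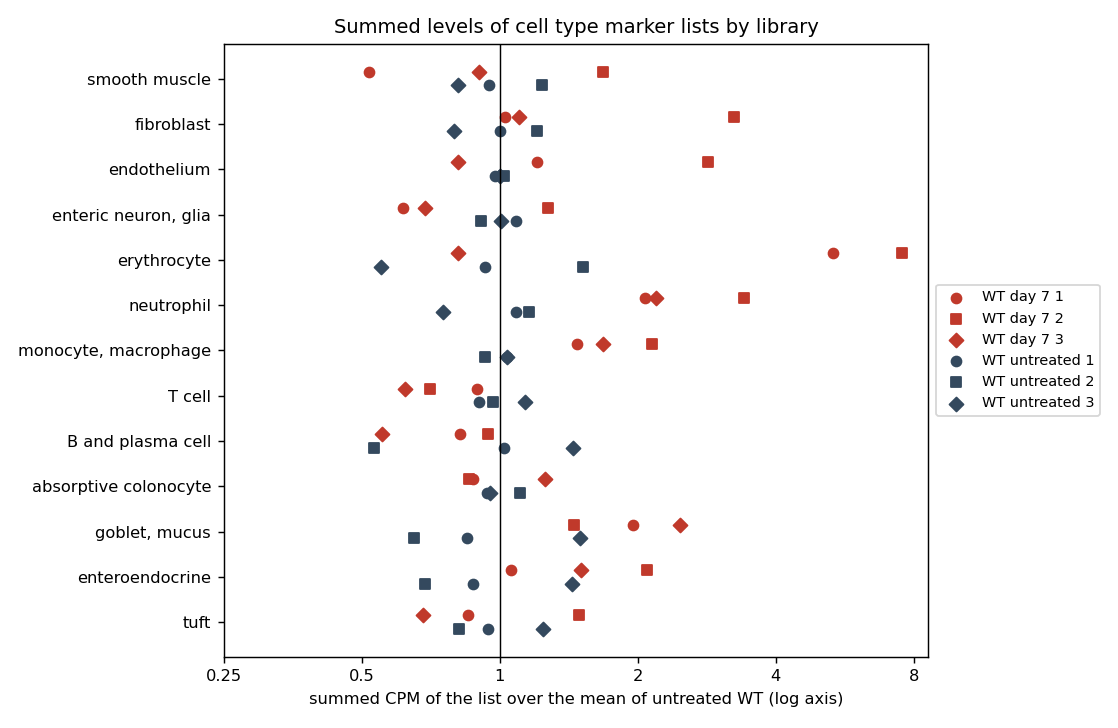
Summed CPM of 13 cell type marker lists in each WT library over the mean of the 3 untreated WT libraries, on a log axis; red symbols are day 7 (above), dark symbols untreated (below), and the shape gives the replicate. WT day 7 replicate 2 lies furthest to the right for smooth muscle, fibroblast, endothelium and enteric neuron and glia; the neutrophil sum is mostly Ly6g.

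Genes of the interferon-gamma response and of antigen presentation were higher in nearly all cases. All 24 genes tested had a positive log2 fold change (median 1.66), and in 23 each WT day 7 library lay above each untreated WT library, against 16.2% of all genes tested. Cd74, the chaperone of class II molecules, had 221, 462 and 870.2 CPM at WT day 7, against 121, 80.5 and 132 CPM in untreated WT (log2 fold change 2.22 ± 0.62, adjusted p = 0.0257). Nlrc5, the transactivator of class I genes, had 15, 18.4 and 34.6 CPM at WT day 7, against 2.35, 1.92 and 3 CPM in untreated WT (log2 fold change 3.22 ± 0.71, adjusted p = 0.00833). Tap1, the peptide transporter of the class I pathway, had 57.2, 44.6 and 93.4 CPM at WT day 7, against 18.7, 22.8 and 23.8 CPM in untreated WT (log2 fold change 1.58, adjusted p = 0.0329). In all 13 of the 24 passed (54.2%), beside 8.52% of all genes tested, but most lay near the threshold. The count was 0 with the Y-linked covariate or without the shared-number pair, 1 without WT day 7 replicate 3 or without untreated WT replicate 1 or 2, 2 without untreated WT replicate 3, 3 with no filter on low counts, 7 without WT day 7 replicate 2 and 20 with DESeq2. Ifng itself had 4 reads at WT day 7 and 1 in untreated WT and was not tested.

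Type I interferon genes had the same pattern of signs. All 19 genes tested were positive (median 2.01). In 16 each WT day 7 library lay above each untreated WT library, beside 16.2% of all genes tested. Only 1 gene passed (5.26%), below the 8.52% of all genes tested that rose. That gene was Zbp1, a sensor of nucleic acids that triggers necroptosis, with 67.2, 81.3 and 119 CPM at WT day 7, against 11.1, 10.6 and 12.7 CPM in untreated WT (log2 fold change 2.96 ± 0.53, adjusted p = 0.00292). Isg15, a ubiquitin-like protein induced by interferon, had 8.79, 10.8 and 24.6 CPM at WT day 7, against 1.22, 2.38 and 4.86 CPM in untreated WT (log2 fold change 2.39, adjusted p = 0.0738). The number that passed was 3 with RLE size factors or with library totals alone or with a stricter filter, 6 in a fit of the 6 libraries alone, 13 with DESeq2 and 14 without the 3 outlying libraries of other groups.

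Among genes of cell death, Ripk3, the kinase of necroptosis, had 55.1, 58.8 and 83 CPM at WT day 7, against 12.1, 13.8 and 15.5 CPM in untreated WT (log2 fold change 2.25 ± 0.40, adjusted p = 0.00294), and its substrate Mlkl rose with it (log2 fold change 1.21, adjusted p = 0.025). Casp8, which cleaves Ripk3 and its partners, had 115, 129 and 133 CPM at WT day 7, against 58.1, 66.6 and 51.3 CPM in untreated WT (log2 fold change 1.10 ± 0.25, adjusted p = 0.01). Nlrp3, the inflammasome sensor, was low in both groups and rose (log2 fold change 2.68, adjusted p = 0.0376), whereas Nlrp6, Aim2, Pycard and Casp1 overlapped between the groups. Gsdmc3 and Gsdmc2, gasdermins of the gut epithelium, fell, and Gsdmc3 had 53.7, 29 and 94.2 CPM at WT day 7, against 383, 380.2 and 138 CPM in untreated WT (log2 fold change -2.35 ± 0.55, adjusted p = 0.0109). Untreated WT replicate 3 was the lowest of its group. In this list 8 of 17 genes rose (47.06%) and 2 fell (11.76%), beside 8.52% and 7.77% of all genes tested. Risers numbered 4 with the Y-linked covariate or without the shared-number pair or without untreated WT replicate 1 or 2 and 5 without WT day 7 replicate 3 or without untreated WT replicate 3. Genes that fell numbered 0 in a fit of the 6 libraries alone or in a fit of all 24 libraries or with the Y-linked covariate or without the shared-number pair and 1 with no filter on low counts or without WT day 7 replicate 1, 2 or 3 or without untreated WT replicate 1 or 2. The near-identical Gsdmc copies may share reads.

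Genes known from regenerating, fetal-like epithelium were partly higher. Ly6a (ENSMUSG00000075602, chr15:74994877-74998031, minus strand), which encodes Sca-1, a marker of that state, had 705, 814 and 1108 CPM at WT day 7, against 114, 132 and 112 CPM in untreated WT (log2 fold change 2.88 ± 0.35, adjusted p = 0.00064), and each WT day 7 library lay above each untreated WT library. The list holds 3 EGF receptor ligands, which rose. Areg, amphiregulin, had 35.5, 108 and 58.7 CPM at WT day 7, against 9.46, 18.6 and 8.16 CPM in untreated WT (log2 fold change 2.47 ± 0.42, adjusted p = 0.00232). Ereg, epiregulin, had 29.8, 146 and 16.9 CPM at WT day 7, against 2.82, 7.28 and 2.43 CPM in untreated WT (log2 fold change 3.93 ± 0.82, adjusted p = 0.00608). Hbegf, the heparin-binding member, had 24, 86 and 46.9 CPM at WT day 7, against 6.22, 18.5 and 5.3 CPM in untreated WT (log2 fold change 2.38 ± 0.51, adjusted p = 0.00749). Other ligands of that receptor, looked up after the values were seen and not recomputed under the alternatives, differed in direction. Epgn rose (log2 fold change 4.20, adjusted p = 0.00672), Egf itself fell (log2 fold change -1.37, adjusted p = 0.0136), and Tgfa (log2 fold change 0.42, adjusted p = 0.117) and Btc (log2 fold change 0.41, adjusted p = 0.283) did not pass. Plaur, the urokinase receptor, had 14.9, 39.7 and 13.4 CPM at WT day 7, against 3.24, 4.06 and 2.73 CPM in untreated WT (log2 fold change 2.75 ± 0.47, adjusted p = 0.00239). Of 20 genes tested 7 rose (35%, median log2 fold change 2.14), beside 8.52% of all genes tested. Without the 3 outlying libraries of other groups 12 rose. Clu, which marks revival stem cells, had 68.3, 203 and 32.1 CPM at WT day 7, against 54.9, 38.1 and 65.4 CPM in untreated WT, highest in WT day 7 replicate 2 and overlapping (log2 fold change 0.94, adjusted p = 0.325). Anxa1 (log2 fold change 0.92, adjusted p = 0.187), Ccn1 (log2 fold change 0.75, adjusted p = 0.335) and Ccn2 (log2 fold change -0.04, adjusted p = 0.966) did not pass.

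Feedback targets of the ERK kinase pathway, which EGF receptor ligands activate, were examined as a list chosen after the values were seen. Dusp6, an ERK phosphatase, had 70.9, 146 and 122 CPM at WT day 7, against 19, 30.6 and 22.4 CPM in untreated WT (log2 fold change 2.24 ± 0.27, adjusted p = 0.00064). Spry4, an inhibitor of receptor tyrosine kinase signals, had 15.8, 39 and 29.3 CPM at WT day 7, against 3.95, 5.67 and 5.6 CPM in untreated WT (log2 fold change 2.46 ± 0.31, adjusted p = 0.000677). Phlda1, a growth factor-induced gene, had 44.5, 101 and 44.2 CPM at WT day 7, against 8.24, 9.31 and 12.6 CPM in untreated WT (log2 fold change 2.66 ± 0.33, adjusted p = 0.000677). These 3, with Fosl1, Ier3 and Egr1, were the 6 of 15 genes that rose (40%), beside 8.52% of all genes tested. The groups did not overlap for Dusp6, Spry4 and Phlda1. Spred1 and Spred2 were 0.20 and 0.22 on the log2 scale and did not pass.

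Genes of DNA replication rose, and mitotic genes did not pass the test. Mcm3, a subunit of the helicase that opens replication origins, had 55.2, 39.8 and 55.2 CPM at WT day 7, against 14.7, 11.6 and 12.3 CPM in untreated WT (log2 fold change 1.96 ± 0.22, adjusted p = 0.00064). Ccne1, cyclin E1, which drives entry into S phase, had 13.1, 12.4 and 12.9 CPM at WT day 7, against 3.36, 3.29 and 3.56 CPM in untreated WT (log2 fold change 1.91 ± 0.23, adjusted p = 0.00064), with almost no spread within either group. Rrm2, the small subunit of ribonucleotide reductase, had 39.5, 30 and 31.5 CPM at WT day 7, against 7.19, 7.43 and 6.17 CPM in untreated WT (log2 fold change 2.28 ± 0.29, adjusted p = 0.000701). Mcm2, Mcm4, Mcm5, Mcm6, Mcm7, Pcna and Ccne2 completed the 10 of 23 cell cycle genes that rose (43.5%), beside 8.52% of all genes tested. The count stayed between 8 and 10 in each alternative. Of the mitotic genes, Mki67, the proliferation antigen, had 217, 85.8 and 109 CPM at WT day 7, against 229, 209 and 118 CPM in untreated WT (log2 fold change -0.43 ± 0.58, adjusted p = 0.635). Ccnb1, cyclin B1, had 36.6, 10.8 and 12.1 CPM at WT day 7, against 29.1, 29.6 and 15.7 CPM in untreated WT (log2 fold change -0.32 ± 0.74, adjusted p = 0.797). WT day 7 replicate 1 was the highest WT day 7 library for both, and the groups overlapped. In KO the log2 fold change of Mki67 was 1.89 (adjusted p = 0.0499) and that of Ccnb1 1.77 (adjusted p = 0.149), and the WT minus KO difference for Mki67 was -2.32 ± 0.82 (adjusted p = 0.268).

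**Figure D3:**
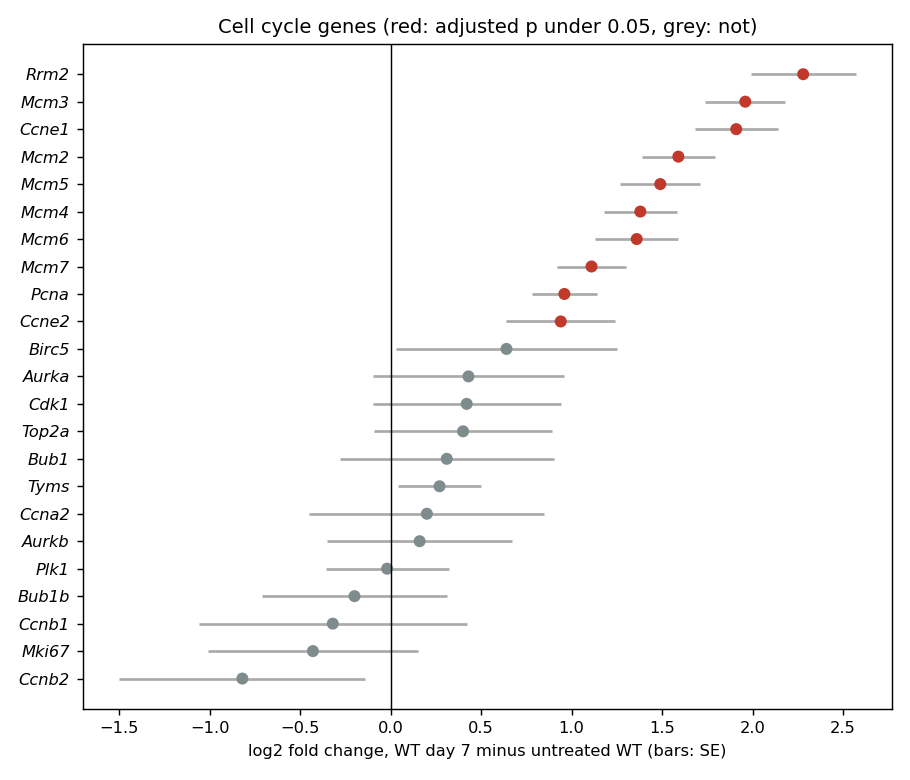
Log2 fold change of 23 cell cycle genes, WT day 7 minus untreated WT, with standard error; red points passed the test and grey points did not. The replication genes from Rrm2 to Ccne2 lie between 0.94 and 2.28, and Mki67, Ccnb1 and Ccnb2 are among those below 0.

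Upstream windows of Mcm5 (chr8:75109259-75109508, plus strand) and Mcm6 (chr1:128359706-128359955, minus strand) are shown for the replication genes that rose together, with matches to the E2F motif TTTNGCGC in capitals (RefSeq, GRCm38.p6, both strands). E2F factors drive genes of S phase.
Mcm5: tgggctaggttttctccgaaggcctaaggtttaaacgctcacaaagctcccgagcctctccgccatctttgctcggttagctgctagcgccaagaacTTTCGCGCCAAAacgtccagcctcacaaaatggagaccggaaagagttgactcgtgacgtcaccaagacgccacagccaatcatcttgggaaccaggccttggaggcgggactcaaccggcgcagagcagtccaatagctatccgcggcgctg
Mcm6: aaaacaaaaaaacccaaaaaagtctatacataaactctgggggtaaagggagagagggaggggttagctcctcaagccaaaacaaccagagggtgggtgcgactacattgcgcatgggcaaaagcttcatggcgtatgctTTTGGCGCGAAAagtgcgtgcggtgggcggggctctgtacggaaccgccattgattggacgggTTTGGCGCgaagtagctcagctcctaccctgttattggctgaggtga
Mcm5 holds 2 overlapping matches, the first 153 bases before the start site, and Mcm6 holds 3, 2 of which overlap. Of 19 cell cycle genes with a window 3 held this motif (15.8%), beside 2.1% of the genes tested with a window, 2.52% of those that rose and 1.8% of those that fell. The windows of Mcm2, Mcm3, Mcm7, Rrm2, Ccne1 and Pcna do not hold these letters. The E2F motif and the windows shown were chosen after the values were seen.

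Growth genes moved with replication genes. Myc, a transcription factor that drives ribosome production, had 41.5, 64.3 and 60.3 CPM at WT day 7, against 16.9, 19.2 and 25.3 CPM in untreated WT (log2 fold change 1.43 ± 0.26, adjusted p = 0.0034). Ccnd1, cyclin D1, had 188, 131 and 124 CPM at WT day 7, against 46.5, 74.4 and 60 CPM in untreated WT (log2 fold change 1.29 ± 0.22, adjusted p = 0.00247). In a ribosome biogenesis list chosen after the values were seen, 17 of 20 genes rose (85%), beside 8.52% of all genes tested. The median log2 fold change was 0.94, and the count moved by less than 1.5 times in each alternative. Rrs1, an assembly factor of the large ribosomal subunit, had 40.1, 37.8 and 32 CPM at WT day 7, against 13.7, 15.7 and 15.9 CPM in untreated WT (log2 fold change 1.28 ± 0.15, adjusted p = 0.00064). Gar1, a protein of the particles that modify ribosomal RNA, had 26.7, 24.1 and 21.4 CPM at WT day 7, against 9.16, 7.89 and 9.73 CPM in untreated WT (log2 fold change 1.43 ± 0.17, adjusted p = 0.00064). The libraries of each group lay close together for both genes. Of 20 cytosolic tRNA synthetase genes, also chosen afterwards, 13 rose (65%) and 1 fell (5%), beside 8.52% and 7.77% of all genes tested. Mars, the methionine enzyme, had 45.6, 41.7 and 43.1 CPM at WT day 7, against 23.5, 26.2 and 20.9 CPM in untreated WT (log2 fold change 0.88 ± 0.11, adjusted p = 0.000677). Qars, the glutamine enzyme, had 121, 80.9 and 119 CPM at WT day 7, against 147, 149 and 146 CPM in untreated WT (log2 fold change -0.46 ± 0.12, adjusted p = 0.0209). Synthetase genes that rose numbered 6 with the Y-linked covariate, 7 in a fit of the 6 libraries alone and 8 without WT day 7 replicate 3.

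Chaperones of the endoplasmic reticulum were higher. Hspa5, the main chaperone BiP, had 615, 633 and 962 CPM at WT day 7, against 274, 282 and 269.8 CPM in untreated WT (log2 fold change 1.42 ± 0.25, adjusted p = 0.00244). Asns, asparagine synthetase, a target of the amino acid stress factor ATF4, had 47, 40 and 42.6 CPM at WT day 7, against 11.9, 9.23 and 15.1 CPM in untreated WT (log2 fold change 1.84 ± 0.29, adjusted p = 0.00178). Calr and Hsp90b1, 2 further chaperones, rose with them (log2 fold change 1.03, adjusted p = 0.00976 and log2 fold change 0.88, adjusted p = 0.0112). In all 8 of 17 genes of the list rose (47.1%, median log2 fold change 0.59), beside 8.52% of all genes tested. The stress markers Trib3, Dnajb9 and Ern1 overlapped between the groups. The count was 2 with the Y-linked covariate, 3 in a fit of the 6 libraries alone or without WT day 7 replicate 3 or without untreated WT replicate 1 and 5 without WT day 7 replicate 1 or without untreated WT replicate 2.

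Stem cell and Wnt target genes moved in both directions. Lgr5, the crypt base stem cell receptor for R-spondins, had 2.61, 0.178 and 0.491 CPM at WT day 7, against 7.78, 4.6 and 12 CPM in untreated WT, with no overlap (log2 fold change -2.85 ± 0.75, adjusted p = 0.0201). The Lgr5 adjusted p was 0.0989 in a fit of the 6 libraries alone, 0.0599 with the Y-linked covariate, 0.0544 without the shared-number pair, 0.0519 without WT day 7 replicate 2, 0.0615 without WT day 7 replicate 3, 0.0503 without untreated WT replicate 1 and 0.0657 without untreated WT replicate 3. Ascl2, a stem cell transcription factor, was lower in each WT day 7 library, with 3.36, 0.178 and 0.982 CPM at WT day 7, against 4.33, 4.41 and 6.99 CPM in untreated WT, and did not pass (log2 fold change -1.77, adjusted p = 0.0681). Axin2, a Wnt feedback inhibitor, had 16.5, 15.2 and 19.7 CPM at WT day 7, against 23.8, 24.4 and 29.3 CPM in untreated WT (log2 fold change -0.59 ± 0.18, adjusted p = 0.0351). For Axin2 the adjusted p was 0.0843 with no filter on low counts, 0.094 in a fit of the 6 libraries alone, 0.133 in a fit of all 24 libraries, 0.0725 with the Y-linked covariate, 0.144 without the shared-number pair, 0.0814 without WT day 7 replicate 1, 0.104 without WT day 7 replicate 2, 0.0667 without untreated WT replicate 1, 0.0648 without untreated WT replicate 2 and 0.118 without untreated WT replicate 3. Of 17 Wnt targets Ccnd1, Myc and Ephb2 rose (17.65%) and Lgr5 and Axin2 fell (11.76%), beside 8.52% and 7.77% of all genes tested. The number of Wnt targets that fell was 0 in a fit of the 6 libraries alone or with the Y-linked covariate or without the shared-number pair or without WT day 7 replicate 2 or without untreated WT replicate 1 or 3 and 1 with no filter on low counts or in a fit of all 24 libraries or without WT day 7 replicate 3 or without untreated WT replicate 2. Ephb2, a receptor that positions crypt cells, had an adjusted p of 0.0233, and 0.0779 in a fit of the 6 libraries alone, 0.124 with the Y-linked covariate, 0.0645 without the shared-number pair, 0.0552 without WT day 7 replicate 1, 0.065 without WT day 7 replicate 3, 0.112 without untreated WT replicate 1 and 0.0553 without untreated WT replicate 2. Sox9, a crypt transcription factor, had 48.6, 61.9 and 43.7 CPM at WT day 7, against 43.4, 56.5 and 49.4 CPM in untreated WT (log2 fold change 0.05, adjusted p = 0.891).

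Few absorptive genes of the mature colonocyte fell. In the absorptive colonocyte list 1 of 20 genes did, beside 7.77% of all genes tested, with a median log2 fold change of -0.15, and that number was 0 with RLE size factors or with no filter on low counts or in a fit of the 6 libraries alone or in a fit of all 24 libraries or with the Y-linked covariate or without the shared-number pair or without WT day 7 replicate 1 or 2 or without untreated WT replicate 1, 2 or 3 or without the 3 outlying libraries of other groups and 2 with DESeq2 or without WT day 7 replicate 3. Slc4a4, a basolateral bicarbonate transporter, had 37, 25.4 and 43.1 CPM at WT day 7, against 199.9, 176 and 53.1 CPM in untreated WT, where untreated WT replicate 3 lay near the WT day 7 libraries (log2 fold change -2.02 ± 0.41, adjusted p = 0.00535). Its adjusted p was 0.0585 in a fit of the 6 libraries alone, 0.117 with the Y-linked covariate and 0.061 without the shared-number pair. Car2, carbonic anhydrase 2, had 777, 315 and 1027 CPM at WT day 7, against 1531, 1658 and 1648 CPM in untreated WT (log2 fold change -1.19, adjusted p = 0.0344). Slc26a2, a sulfate transporter, had 754, 507 and 1369 CPM at WT day 7, against 2513, 2090.0 and 2037 CPM in untreated WT (log2 fold change -1.34, adjusted p = 0.043). Of 23 ion transport genes 19 had a negative log2 fold change. In 8 of the 23 each WT day 7 library lay below each untreated WT library, beside 17.2% of all genes tested. Slc4a4, Car2 and Slc26a2 were the 3 of 23 that fell (median log2 fold change -0.61 for the list), again beside 7.77% of all genes. Their number was 0 in a fit of the 6 libraries alone or with the Y-linked covariate or without the shared-number pair, 1 with no filter on low counts or in a fit of all 24 libraries or without WT day 7 replicate 2 or without untreated WT replicate 1, 2 or 3, 5 with DESeq2 or without the 3 outlying libraries of other groups and 6 without WT day 7 replicate 3. Slc26a3, the chloride exchanger whose loss causes chloride diarrhoea, was lower in each WT day 7 library without passing, with 582, 264 and 1267 CPM at WT day 7, against 1436, 1954 and 1518 CPM in untreated WT (log2 fold change -1.22, adjusted p = 0.0736). Aqp4 and Slc9a3 had a spread within untreated WT that exceeded the difference between groups. Slc9a3 had 569.5, 199.7 and 219.9 CPM at WT day 7, against 22.2, 8.39 and 525 CPM in untreated WT.

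Detoxification genes that fell were 5 of 20, against 7.77% of all genes tested. Gstm1, a glutathione transferase, had 94.7, 67.1 and 81.9 CPM at WT day 7, against 189.8, 181 and 274 CPM in untreated WT (log2 fold change -1.40 ± 0.23, adjusted p = 0.002). Cyp2s1, a cytochrome P450 of barrier epithelia, had 67.5, 35.3 and 64.3 CPM at WT day 7, against 176, 176 and 138 CPM in untreated WT (log2 fold change -1.55 ± 0.25, adjusted p = 0.00189), with no overlap for either. The others were Ugt2b34, Cyp3a13 and Gstm3. The number of such genes was 2 in a fit of the 6 libraries alone or without the shared-number pair, 3 in a fit of all 24 libraries or without WT day 7 replicate 2 or without untreated WT replicate 1 or 3 and 8 without the 3 outlying libraries of other groups. In fatty acid oxidation 3 of 20 genes fell (15%), beside 7.77% of all genes tested. Ppargc1a, the coactivator of mitochondrial genes, had 19, 13.8 and 34.6 CPM at WT day 7, against 108, 62.2 and 65.5 CPM in untreated WT (log2 fold change -1.80 ± 0.38, adjusted p = 0.00686). The dehydrogenase gene Acadm had 86, 60.1 and 89 CPM at WT day 7, against 143, 158 and 133 CPM in untreated WT (log2 fold change -0.89 ± 0.15, adjusted p = 0.00195). Acadl, of the same enzyme family, rose (log2 fold change 0.72 ± 0.15, adjusted p = 0.00677), and the third that fell was Ehhadh. In a fit of the 6 libraries alone 1 gene of the list fell. Of 21 oxidative phosphorylation subunits 1 rose (4.76%), below the 8.52% of all genes tested. That number was 0 in a fit of the 6 libraries alone or with the Y-linked covariate. It was also 0 without WT day 7 replicate 1 or 3 or without untreated WT replicate 1, 2 or 3.

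The largest falls outside these lists included genes of nutrient handling. Pck1, the enzyme that commits carbon to glucose synthesis, had 37.5, 11.8 and 31.9 CPM at WT day 7, against 157, 155 and 251 CPM in untreated WT (log2 fold change -2.79 ± 0.43, adjusted p = 0.00161). Slc2a5, the fructose transporter, had 2.19, 0.414 and 0.589 CPM at WT day 7, against 9.38, 9.61 and 15.8 CPM in untreated WT (log2 fold change -3.41 ± 0.59, adjusted p = 0.00244). Insrr, a receptor related to the insulin receptor that senses alkaline pH, had 1.26, 1.01 and 1.38 CPM at WT day 7, against 14.5, 8.5 and 7.38 CPM in untreated WT (log2 fold change -3.05 ± 0.30, adjusted p = 0.000608). Smpx, known as a small muscle protein, had 1.81, 0.592 and 1.92 CPM at WT day 7, against 10.1, 10.8 and 8.51 CPM in untreated WT (log2 fold change -2.75 ± 0.48, adjusted p = 0.00244). Odf3b and Cyp2c68 also fell, and these 6 passed in each alternative, though reads of Cyp2c68 may be shared with other Cyp2c genes. Among the named genes Gpr83 had the largest fall, with 0.252, 0.118 and 1.62 CPM at WT day 7, against 11, 8.5 and 2.91 CPM in untreated WT (log2 fold change -3.47 ± 1.04, adjusted p = 0.0346). For Gpr83 the adjusted p was 0.0808 with no filter on low counts, 0.0752 in a fit of the 6 libraries alone, 0.174 with the Y-linked covariate, 0.166 without the shared-number pair, 0.0967 without WT day 7 replicate 1, 0.0991 without WT day 7 replicate 2, 0.105 without untreated WT replicate 1 and 0.0769 without untreated WT replicate 2. Among the largest rises not yet named, Il1rl1, the receptor of IL-33, had 32.5, 86.3 and 15.4 CPM at WT day 7, against 0.757, 0.345 and 0.738 CPM in untreated WT (log2 fold change 6.19 ± 0.95, adjusted p = 0.00158). Plet1, an epithelial surface protein, had 158, 68.7 and 140.2 CPM at WT day 7, against 0.378, 0.345 and 4.08 CPM in untreated WT (log2 fold change 6.27 ± 1.86, adjusted p = 0.0336). The adjusted p of Plet1 was 0.098 with no filter on low counts, 0.137 with the Y-linked covariate, 0.138 without the shared-number pair, 0.0541 without WT day 7 replicate 1, 0.0539 without WT day 7 replicate 3, 0.124 without untreated WT replicate 1, 0.115 without untreated WT replicate 2 and 0.0512 without untreated WT replicate 3.

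Secretory cell genes mostly overlapped. Muc2, the mucin of the colonic mucus layer, had 5949, 2903 and 4262 CPM at WT day 7, against 1229, 900.0 and 3379 CPM in untreated WT (log2 fold change 1.25, adjusted p = 0.198), with untreated WT replicate 3 within the WT day 7 range. Fcgbp, a mucus protein, rose (log2 fold change 1.08 ± 0.34, adjusted p = 0.0406). With Clca4b it made up the 2 of 19 goblet and mucus genes that rose (10.5%), near the 8.52% of all genes tested. The adjusted p of Fcgbp was 0.135 in a fit of the 6 libraries alone, 0.0717 in a fit of all 24 libraries, 0.278 with the Y-linked covariate, 0.114 without the shared-number pair, 0.169 without WT day 7 replicate 3, 0.118 without untreated WT replicate 1 and 0.152 without untreated WT replicate 2. Tph1, which makes serotonin in enterochromaffin cells, and Pyy, a hormone of L cells, were the 2 of 18 enteroendocrine genes that rose (log2 fold change 0.98, adjusted p = 0.0316 for Tph1 and log2 fold change 1.29, adjusted p = 0.0424 for Pyy), beside 8.52% of all genes. Enteroendocrine genes that rose numbered 0 in a fit of the 6 libraries alone or in a fit of all 24 libraries or with the Y-linked covariate or without the shared-number pair or without WT day 7 replicate 2 or without untreated WT replicate 1 or 2 and 1 with library totals alone or with no filter on low counts or without WT day 7 replicate 3. Of 13 tuft cell genes 0 passed edgeR's test, 3 had an unadjusted p under 0.05 and 1 passed with DESeq2.

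Genes of the circadian clock were the list with the most falls: 9 of 18 fell (50%) and 1 rose (5.56%), with a median log2 fold change of -1.12. Of all genes tested 7.77% fell and 8.52% rose. Dbp, an output transcription factor of the clock, had 43.7, 15.3 and 3.68 CPM at WT day 7, against 232, 194 and 228 CPM in untreated WT (log2 fold change -3.38 ± 0.66, adjusted p = 0.00472). The WT day 7 libraries were widely spread, with replicate 3 lowest, while the untreated WT libraries lay close together. Clock genes cycle over the day, the labels do not give the hour of collection, and its part in these values was not tested. Per3, a period gene, had 53, 17 and 13.5 CPM at WT day 7, against 138, 114 and 127 CPM in untreated WT (log2 fold change -2.18 ± 0.40, adjusted p = 0.00354). Ciart, a clock repressor, had 12.8, 2.96 and 3.78 CPM at WT day 7, against 34.6, 44.9 and 40.9 CPM in untreated WT (log2 fold change -2.61 ± 0.44, adjusted p = 0.00207). Nfil3, which represses the promoters that Dbp activates, had 5.46, 21.6 and 12.7 CPM at WT day 7, against 0.841, 0.46 and 0.912 CPM in untreated WT (log2 fold change 4.16 ± 0.68, adjusted p = 0.00188). Nr1d1, Nr1d2, Cry2, Tef and Hlf also fell. The core activators were split by library. Arntl had 7.48, 27.7 and 56.3 CPM at WT day 7, against 10, 17.3 and 14.3 CPM in untreated WT, above the untreated range in WT day 7 replicates 2 and 3 and below it in replicate 1 (log2 fold change 1.14 ± 0.54, adjusted p = 0.157). Npas2 had 10.4, 49.2 and 82.7 CPM at WT day 7, against 17.7, 26.4 and 11.4 CPM in untreated WT (log2 fold change 1.36, adjusted p = 0.109). Clock itself overlapped (log2 fold change -0.16, adjusted p = 0.611). Clock genes that fell numbered 1 in a fit of the 6 libraries alone, 4 with the Y-linked covariate and 5 without the shared-number pair, and genes that rose 2 with DESeq2 and 3 without WT day 7 replicate 1. Ciart and Nfil3 passed in each alternative.

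**Figure D4:**
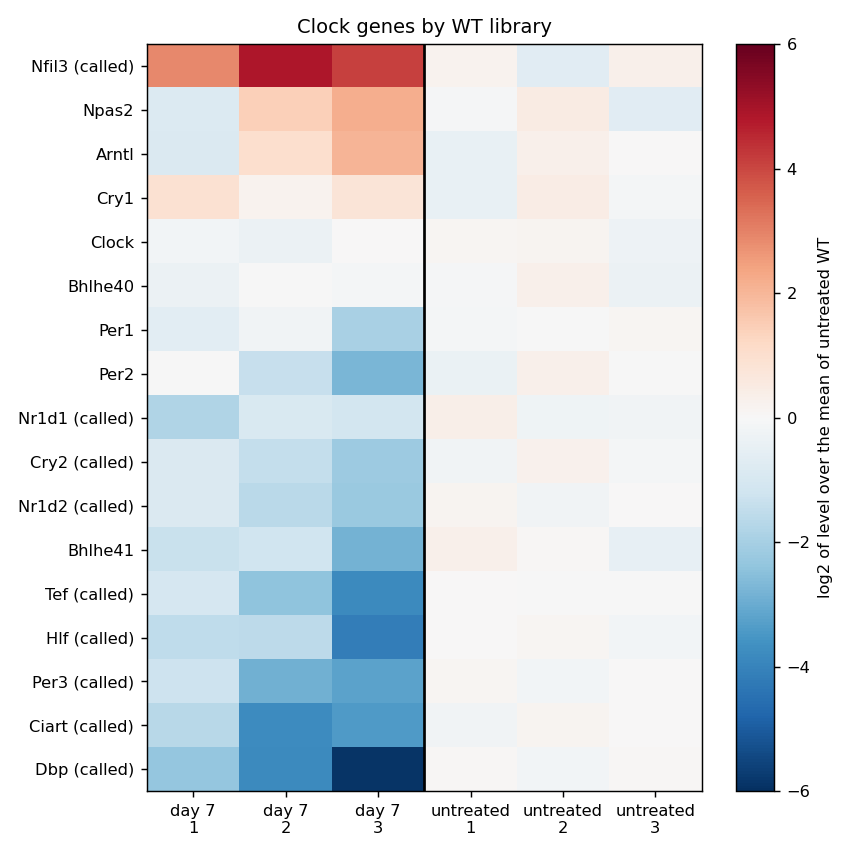
Level of 17 of the 18 clock genes in each WT library as log2 of CPM over the mean of untreated WT, day 7 left of the line and untreated right of it, with genes ordered by fold change and those that passed marked "called". The day 7 libraries differ among themselves, and replicate 3 is the most extreme for Dbp, Hlf, Tef and Arntl.

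The upstream window of Ciart (chr3:95882229-95882478, minus strand) is shown because it holds 3 copies of the E-box CACGTG, which the Clock and Arntl proteins bind; the copies are in capitals (RefSeq, GRCm38.p6, both strands, and the motif reads the same on each).
Ciart: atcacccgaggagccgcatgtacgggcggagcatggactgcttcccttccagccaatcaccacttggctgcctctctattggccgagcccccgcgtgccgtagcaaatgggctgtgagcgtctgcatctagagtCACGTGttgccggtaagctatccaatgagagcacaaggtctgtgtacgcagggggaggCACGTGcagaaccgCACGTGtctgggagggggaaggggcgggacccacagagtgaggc
The copies begin 116, 58 and 44 bases before the start site. The windows of Dbp, Per3, Nr1d1, Nr1d2, Hlf and Cry2, which also fell, hold no E-box, and each of the 2 windows of Tef holds 1. The motif and the window shown were chosen after the values were seen. Of 15 clock genes with a window 5 held the E-box (33.3%), beside 9.29% of the genes tested with a window, 9.38% of those that rose and 10.7% of those that fell.

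Several smaller groups held genes that passed in each alternative. Steap4, a metalloreductase induced by inflammation, had 46.1, 75.7 and 136 CPM at WT day 7, against 10.1, 6.24 and 7.64 CPM in untreated WT (log2 fold change 3.43 ± 0.57, adjusted p = 0.00206). It was among the 5 of 17 iron and metal genes that rose (29.4%), and 1 fell (5.88%), beside 8.52% and 7.77% of all genes tested. The number that rose was 1 with the Y-linked covariate or without the shared-number pair or without untreated WT replicate 1 or 2, 2 without untreated WT replicate 3 and 3 in a fit of the 6 libraries alone or without WT day 7 replicate 3. Pfkfb3, an activator of glycolysis, had 22.5, 81.1 and 103 CPM at WT day 7, against 13.9, 11.3 and 8.47 CPM in untreated WT (log2 fold change 2.62 ± 0.53, adjusted p = 0.00564). With Hk2, a hexokinase, it made up the 2 of 21 glycolysis and hypoxia genes that rose, near the 8.52% of all genes. That count was 1 in a fit of the 6 libraries alone or with the Y-linked covariate and 4 with DESeq2 or with library totals alone or without WT day 7 replicate 2, and the adjusted p of Hk2 was 0.0528 in a fit of the 6 libraries alone, 0.0635 with the Y-linked covariate and 0.0529 without the shared-number pair. Hpgd, the enzyme that breaks down prostaglandin E2, had 83.9, 36.1 and 62.1 CPM at WT day 7, against 202, 188 and 205 CPM in untreated WT (log2 fold change -1.71 ± 0.31, adjusted p = 0.00293). Ptgs2, the inducible cyclooxygenase that makes its precursor, had 13.4, 43.7 and 6.14 CPM at WT day 7, against 2.77, 5.82 and 1.95 CPM in untreated WT (log2 fold change 2.58 ± 0.73, adjusted p = 0.0272). The adjusted p of Ptgs2 was 0.0598 with no filter on low counts, 0.089 in a fit of the 6 libraries alone, 0.101 without the shared-number pair, 0.154 without WT day 7 replicate 2, 0.104 without untreated WT replicate 1 and 0.0944 without untreated WT replicate 3. Cldn4, a tight junction protein, rose and Ocln, occludin, fell, the only 2 of 18 junction genes to pass, with shares below those of all genes (8.52% higher and 7.77% lower). The adjusted p of Cldn4, 0.0244, was 0.0735 in a fit of the 6 libraries alone, 0.0898 with the Y-linked covariate, 0.275 without the shared-number pair, 0.108 without WT day 7 replicate 2, 0.0586 without untreated WT replicate 1 and 0.0995 without untreated WT replicate 2. That of Ocln, 0.0109, was 0.0656 in a fit of the 6 libraries alone, 0.109 with the Y-linked covariate and 0.102 without the shared-number pair.

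**Figure D5:**
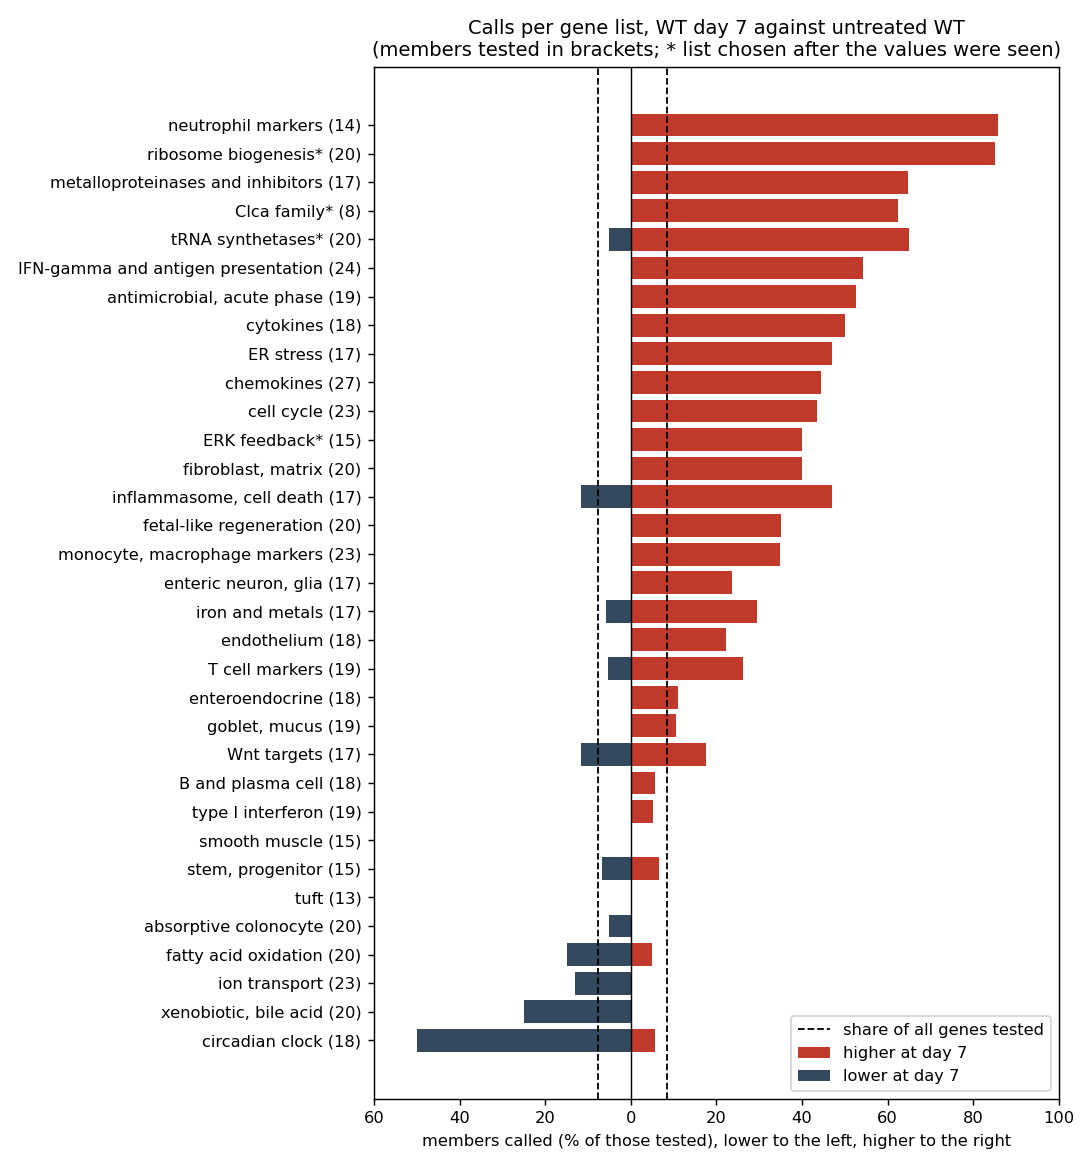
Share of the tested members of each gene list that rose (red, to the right) or fell (dark, to the left) at WT day 7 against untreated WT, in percent, with the number tested in brackets. Dashed lines are the shares of all genes tested, 8.52% and 7.77%; neutrophil markers and ribosome biogenesis lie furthest right and clock genes furthest left.

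In KO colon, with its own untreated group, 1552 genes rose at day 7 (8.57%) and 736 fell (4.07%). The KO groups were uneven too. The Y-linked gene Ddx3y had 925, 873 and 835 reads in untreated KO, against 670, 0 and 0 at KO day 7. Untreated KO replicate 3 also stood apart from replicates 1 and 2 of its group. What part these play in the KO values was not tested. The test of the difference between the WT and KO responses called 0 of 18102 genes (0%), with 2487 at an unadjusted p under 0.05 and 363 with DESeq2, and 36 and 101 genes passed when untreated KO replicate 2 or 3 was left out. Mcm3 rose in both genotypes, with a log2 fold change of 1.96 in WT and 1.78 (adjusted p = 0.000225) in KO. In the ribosome biogenesis list 19 of 20 genes rose in KO. Of the clock genes 8 fell in KO, where Dbp had -2.22 (adjusted p = 0.0321). For Il1b the WT minus KO difference was 4.93 ± 1.25 (adjusted p = 0.19). For Duox2 that difference was 2.65 ± 0.75 (adjusted p = 0.2). The interferon-gamma and antigen presentation genes were positive in 24 of 24 cases in WT (median 1.66) and negative in 24 of 24 in KO (median -0.78), and no gene of the list passed the test of the difference.

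Between WT day 13 and WT day 7, 11 genes passed (0.0608%), 5 higher and 6 lower at day 13, with 3060 at an unadjusted p under 0.05 and 751 with DESeq2. The Y-linked gene Ddx3y had 691, 912 and 702 reads at WT day 13, against 0, 1 and 0 at WT day 7. Time and Y-linked expression therefore cannot be told apart in this comparison. Dut, which keeps uracil out of DNA, averaged 15.1 CPM in untreated WT, 35.2 CPM at WT day 7 and 18.7 CPM at WT day 13, and Lyar, a nucleolar protein, 17, 30.9 and 18.8 CPM in the same order. The number of calls was 0 with the Y-linked covariate and without each WT day 13 library in turn, 78 without WT day 7 replicate 1, 19 without replicate 2 and 2 without replicate 3. Il1b averaged 0.305 CPM in untreated WT, 26.6 CPM at WT day 7 and 51 CPM at WT day 13. Clca4b averaged 5.36 CPM in untreated WT, 2405 CPM at WT day 7 and 2169 CPM at WT day 13. The mean of Mcm3 was 12.9 CPM in untreated WT, 50.1 CPM at WT day 7 and 26.8 CPM at WT day 13. For Areg it was 12.1 CPM in untreated WT, 67.2 CPM at WT day 7 and 19.3 CPM at WT day 13. None of these 4 passed the test between the later time points, and the comparison shares the WT day 7 libraries with the acute one.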

How the data were processed

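RNA from colon tissue was sequenced, and the authors deposited for each library a table of expected counts and TPM values per gene, per the file headers. STAR 2.7.6a, RSEM 1.3.1 and GRCm38 are named in the submitters' processing notes. The sources used here do not give the strand setting or the annotation release. Expected counts were rounded and tested with the quasi-likelihood test of edgeR 4.0.16 in R 4.3.3, with TMM scaling, a minimum count of 10 and a minimum total of 15. The 18 colon libraries were fitted as 6 groups of 3, and p-values were adjusted over all 18102 genes tested at a threshold of 0.05. TPM served only to compare levels between genes. Replicates carry numbers by accession order, and replicates of a group differed by more than sampling noise.

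Named genes were 20 genes of interest, up to 15 with the largest changes in each direction (5 CPM or more on average where higher, libraries not overlapping) and the 4 with the smallest p in each list. Other genes were named after their values were seen, and a few genes that the rule names are not reported here. The members and the 37 gene lists were chosen with earlier results of these data known, and 4 lists (ribosome biogenesis, tRNA synthetases, ERK feedback and Clca) were added after the values were seen. Gene positions come from GENCODE on GRCm38. On simulated data with 17814 genes the test recovered 52% of 50 genes changed 2-fold, 94% at 4-fold, 94% at 8-fold and 100% at 16-fold, and it called 0.0341% of unchanged genes. The changed genes were drawn only from those with more than 50 reads expected in a library of median size. Counts followed the fitted spread, with no outlying library and no Y-linked imbalance. These rates therefore do not apply to genes near 0 reads or to the uneven libraries described above. Of 16 alternatives, DESeq2 1.42.0 among them, the fit without 3 outlying libraries was added after the data were seen; it omits replicate 3 of untreated KO, replicate 3 of WT at day 13 and replicate 1 of KO at day 13. Intervals on ratios of reads cover counting error only.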

Additional observations from a re-analysis of the deposited data

Results flagged for a closer look

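For 4 named genes, each WT day 7 library lay above each untreated WT library, while each KO day 7 library lay below each untreated KO library. H2-DMa, which helps load peptides on class II molecules, had a log2 fold change of 1.45 in WT and -0.70 (adjusted p = 0.257) in KO, a WT minus KO difference of 2.15 ± 0.54 (adjusted p = 0.19). Aif1, a macrophage gene, had 1.35 in WT and -0.89 (adjusted p = 0.0758) in KO, a difference of 2.24 ± 0.44 (adjusted p = 0.168). Ctla4 had 3.82 in WT and -1.08 (adjusted p = 0.353) in KO, a difference of 4.90 ± 0.99 (adjusted p = 0.175). Icos, a T cell costimulator, had 2.28 in WT and -0.71 (adjusted p = 0.46) in KO, a difference of 2.99 ± 0.78 (adjusted p = 0.194). None of the 4 differences passed edgeR's test of the interaction. The KO groups were uneven in Y-linked expression, as given above, and its part in these signs was not tested.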

How the results depend on the processing

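The number of genes that differed between WT day 7 and untreated WT was 2949 (1543 higher, 1406 lower) and depended most on which libraries entered. It was 931 (577 higher, 354 lower) in a fit of the 6 libraries alone, 1081 (584 and 497) with the Y-linked covariate and 1444 (814 and 630) without the shared-number pair, and it ranged over 1369 to 2627 (higher 679 to 1424, lower 690 to 1266) as each replicate was left out. List members that passed numbered 177, against 108 with the 6 libraries alone, 83 with the covariate, 80 without the pair and 89 to 168 without each replicate. DESeq2 called 2329 genes higher, 363 for the genotype difference and 751 for day 13 against day 7, and 774 genes were lower with no filter on low counts. Leaving out single replicates gave 0 to 101 genes for the genotype difference and 0 to 78 for day 13 against day 7, which was 0 with the covariate. The share of calls that were higher was 52.3% in the fit as reported, 62.5% with no filter and 63.2% with all 24 libraries. Of the named genes, 4 changed sign and passed in none of the alternatives. Myh11, 0.03 on the log2 scale, was -0.63 without the pair and between -0.81 and 0.42 without each replicate. Des (0.37) lay between -0.05 and 0.68 and Cnn1 (0.34) between -0.08 and 0.58 without each replicate. Hspb6 (0.32) was -0.20 without the pair and between -0.21 and 0.65; the lowest values of these 4 muscle genes were those without WT day 7 replicate 2. The cause of these differences was not tested. Depth limits the lowest genes: Mpo, for example, had 2 reads at WT day 7 and 1 in untreated WT and was not tested. No paired analysis was possible because the replicates are numbered in accession order only and the labels give the groups no shared numbers.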
